A study of Mus musculus with 9 samples.

Results

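Nfil3 and 9 genes of the circadian clock (Dbp, Tef, Per1, Per2, Cry1, Cry2, Nr1d1, Nr1d2 and Clock) were followed in 9 mouse embryonic stem cell (mESC) lines, to ask whether Nfil3 moves with the other D-box and clock genes. The genes were selected on measured values of these same arrays, since Nfil3 had stood out for its higher level in one group of lines. Its contrasts with that group are therefore given as a description, with no test. Each of the 10 genes was taken from the transcript clusters (sets of probes for a gene) whose annotation gives its symbol alone. This gave 10 clusters, 1 per gene, out of 23410 clusters with an assigned gene, which carry 19938 different symbols with a cluster of their own.

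The lines were female, of C57BL/6 background by the labels (the methods name C57BL/6J mice), each derived from a blastocyst and profiled at the eighth passage on 1 Affymetrix Mouse Gene ST array. The mESC-IVFWM lines (WM1, WM2 and WM3) came from embryos made by in vitro fertilization (IVF) and cultured to the blastocyst in Whitten's Medium under 20% O2. Those named mESC-IVFKAA (KAA1, KAA2 and KAA3) also had an IVF origin, but their embryos were grown at 5% O2 in amino acid-supplemented KSOM. The mESC-control lines (control1, control2 and control3) were made from blastocysts flushed out of the uterus after natural mating. The methods give the same procedure for all lines after derivation, first on mouse embryonic fibroblast feeders and later on gelatin, with LIF and kinase inhibitors. By design the groups differ in the history of the embryo. Whether the later culture of the cells also differed between lines was not tested. The hour of harvest and the time since the last medium change are not given in the sources used here.

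The circadian clock is a loop of transcription factors. CLOCK and BMAL1 (encoded by Arntl) activate genes that carry an E-box, among them the Per, Cry and Nr1d genes and Dbp, and the PER and CRY proteins then inhibit CLOCK and BMAL1. The REV-ERB proteins encoded by Nr1d1 and Nr1d2 repress genes with a ROR element, such as Arntl and Nfil3. NFIL3 in turn represses genes with a D-box, the element that DBP, TEF and HLF activate. Outside the clock, NFIL3 is known for its role in natural killer and innate lymphoid cells. Undifferentiated mESC carry these genes but are known to lack the self-sustained daily rhythm that appears when they differentiate.

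The pluripotency markers Pou5f1, Sox2, Nanog, Zfp42, Klf2, Klf4, Esrrb, Tfcp2l1, Tbx3 and Dppa3 were measured in every line, and the lowest of them, Tbx3, averaged a log2 level of 6.63. Their mean log2 level spanned 7.75 to 8.41 in mESC-IVFWM lines, 7.72 to 8.07 in mESC-IVFKAA lines and 7.90 to 8.31 in mESC-control lines. Array medians lay between 4.64 and 4.70 in the 9 lines, and the median cluster averaged 4.67. Levels are log2 values, so a difference of 1 is a doubling, and signed differences are mESC-IVFWM or mESC-IVFKAA minus mESC-control, or mESC-IVFWM minus mESC-IVFKAA. With 3 arrays per group, their number limits the precision.

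Although the lines are labelled female, 3 of them stood apart in Y-linked genes. The log2 level of Eif2s3y was 1.77, 1.797 and 5.19 in WM1, WM2 and WM3, 2.20, 3.72 and 1.84 in KAA1, KAA2 and KAA3, and 4.78, 1.77 and 1.84 in control1, control2 and control3. Uty was highest in the same lines, at 4.42 in WM3, 3.099 in KAA2 and 2.63 in control1, against 1.77 to 2.11 in the other 6. There was 1 such line in each group. Differences printed for the 10 genes and the further clock genes that move by over 1.5 times without all 3 lines are given without them as well. Those of the cell type markers, and of 1 of the 2 clusters of Ciart, were not recomputed without these lines.

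Nfil3 had the highest levels in the mESC-IVFWM lines. Its log2 level was 6.50, 6.44 and 6.55 in WM1, WM2 and WM3, 5.90, 5.68 and 5.54 in KAA1, KAA2 and KAA3, and 5.92, 5.69 and 5.92 in control1, control2 and control3. The lowest mESC-IVFWM line (6.44) lay above the highest of the other 6 lines (5.92), and the mESC-IVFKAA and mESC-control lines overlapped. The means were 6.50 ± 0.055 in mESC-IVFWM, 5.71 ± 0.181 in mESC-IVFKAA and 5.84 ± 0.131 in mESC-control (SD, n = 3 each).

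The mean log2 level of Nfil3 was 0.66 higher in mESC-IVFWM than in mESC-control (1.58-fold, SE 0.108) and 0.79 higher in mESC-IVFWM than in mESC-IVFKAA (1.73-fold, SE 0.108). In all, 294 of the 23410 clusters (1.26%) had every mESC-IVFWM line above every mESC-IVFKAA and mESC-control line, and Nfil3 is among them by its choice. Without WM3, KAA2 and control1, the lines with Y-linked signal, Nfil3 was 0.67 higher in mESC-IVFWM than in mESC-control and 0.75 higher in mESC-IVFWM than in mESC-IVFKAA. The contrast that did not choose the gene is that of the IVF lines without Whitten's Medium: Nfil3 was 0.13 lower in mESC-IVFKAA than in mESC-control, with a 95% interval of the difference, -0.377 to 0.116, that includes 0 (limma, two-sided, adjusted p = 0.918). Without WM3, KAA2 and control1 it was -0.079.

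**Figure D1:**
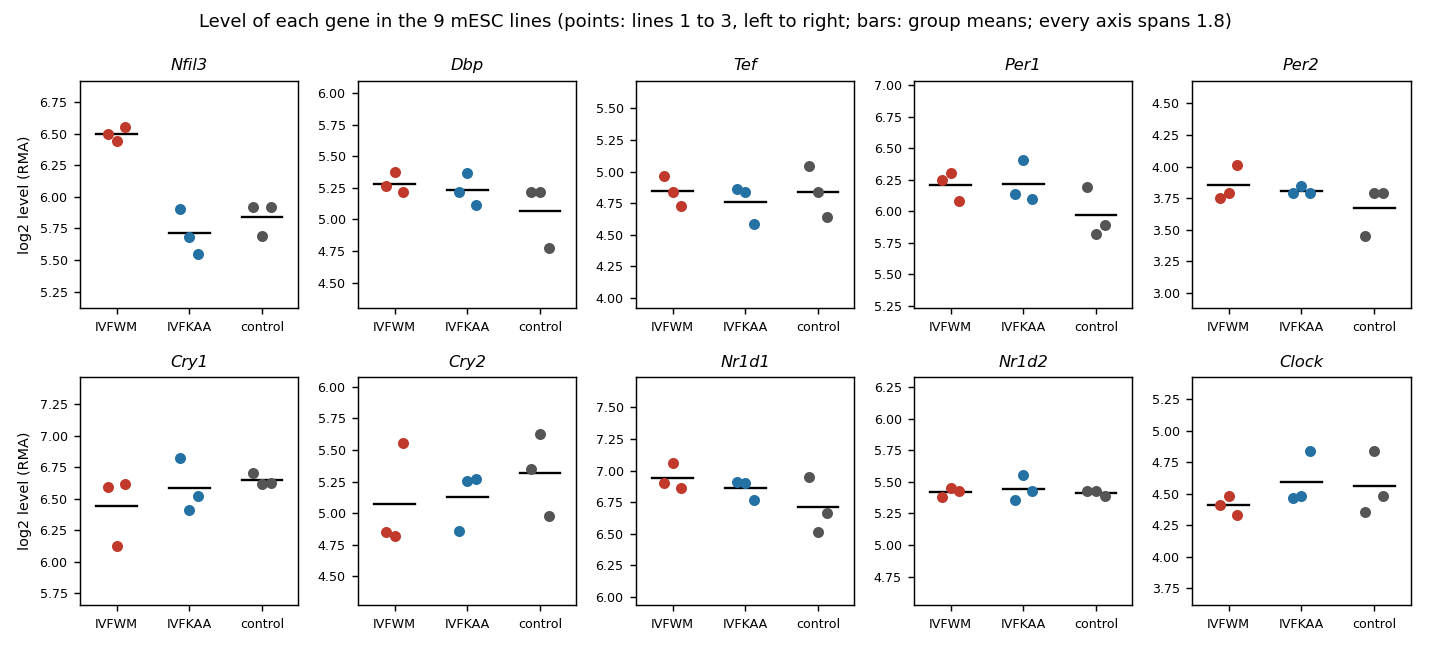
Log2 level (RMA) of Nfil3 and the 9 clock genes in each line, by group, with group means as horizontal bars. Every vertical axis spans the same range. For Nfil3 the 3 mESC-IVFWM lines lie between 6.44 and 6.55, above the other 6 lines. For the other genes the groups overlap, except that the mESC-IVFWM lines of Cry1 lie below the mESC-control lines.

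A list of 12 feeder fibroblast markers had a mean log2 level of 5.25 to 5.50 in mESC-IVFWM lines, 5.16 to 5.28 in mESC-IVFKAA lines and 5.05 to 5.14 in mESC-control lines. Of the 12, 10 had a higher mean in mESC-IVFWM than in mESC-control (51.5% of all clusters), and 8 a higher mean in mESC-IVFWM than in mESC-IVFKAA (47.8%). The largest differences of mESC-IVFWM from mESC-control were those of Acta2 (1.10), Fn1 (0.73) and Vim (0.57), genes of the cytoskeleton and matrix that other cells express as well. The other 9 markers had a mean of 4.02 to 4.21 in mESC-IVFWM lines, 4.05 to 4.097 in mESC-IVFKAA lines and 3.99 to 4.099 in mESC-control lines, ranges that overlap. Among them Col1a1 (0.29), Col3a1 (0.14), Col1a2 (0.12), Col5a1 (0.12), Postn (0.073), Thy1 (0.069) and Pdgfrb (0.042) were above mESC-control in mESC-IVFWM. Dcn (-0.13) and Lum (-0.11), the lowest of the list at an average of 1.82, were below mESC-control. Of 7 markers of primitive endoderm, 0 had a higher mean in mESC-IVFWM than in mESC-control (51.5% of all clusters) or than in mESC-IVFKAA (47.8%). Their mean level spanned 4.70 to 4.99 in mESC-IVFWM lines, 5.05 to 6.11 in mESC-IVFKAA lines and 4.73 to 5.77 in mESC-control lines. The 5.77 was that of control1, while control2 and control3, at 4.84 and 4.73, lay within the mESC-IVFWM range. The 6.11 was that of KAA1, against 5.11 and 5.05 in KAA2 and KAA3. The count against mESC-control was not taken without control1, nor that against mESC-IVFKAA without KAA1. In such bulk RNA, fewer cells of a type and less RNA per cell cannot be told apart.

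Start sites of Nfil3 and the clock genes were read in 300-base windows (250 bases before to 50 after the site, RefSeq, GRCm38.p6). The letters of 4 clock elements were searched on both strands. The windows held 9 of the 10 genes, in 13 windows. The letters searched were TTATGTAA, TTACGTAA, TTACATAA and TTATATAA for the D-box, CACGTG for the E-box, TAGGTCA and TGGGTCA for the ROR element and TGACGTCA for the CRE, and no sequence of one element contains one of another. The ROR element is the site bound by the REV-ERB proteins. It was found in 6.45% of all 32851 windows and in 1 of the 13 windows, that of Nfil3. There it lies 12 bases before the start site of the window, on the opposite strand. This window (chr13:52980990-52981289) lies inside the annotated span of Nfil3, which begins at 52982878 on the minus strand. The outer start of the gene was therefore not searched. Arntl, the best known target of the REV-ERB proteins, carries it 30 bases after its start site. These stretches are shown because Nfil3 is the gene that stands apart in mESC-IVFWM lines and Arntl, described further on, is the clock gene with the largest negative difference between mESC-IVFWM and mESC-IVFKAA. Capitals mark the element, at chr13:52981015-52981081 (minus strand) for Nfil3 and chr7:113207511-113207560 (plus strand) for Arntl.
Nfil3: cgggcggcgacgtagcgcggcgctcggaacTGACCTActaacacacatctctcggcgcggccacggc
Arntl: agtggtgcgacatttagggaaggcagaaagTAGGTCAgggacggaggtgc

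The D-box, at which NFIL3 and DBP compete, was found in 1.59% of all windows and in 0 of the 13 windows of the 9 genes. Among other clock genes it stood in the window of Timeless, 157 bases before the start site, and in that of Per3, a paralog of Per1 and Per2, at 205 and 158 bases before the start site (chr4:151044786-151044900, minus strand), and this stretch is shown because it holds the only pair of D-box matches among the clock genes searched. A window without these letters says nothing of sites elsewhere in a gene.
Per3: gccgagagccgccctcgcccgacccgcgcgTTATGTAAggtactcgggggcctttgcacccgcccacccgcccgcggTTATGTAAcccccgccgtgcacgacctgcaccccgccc

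The E-box of CLOCK and BMAL1 was found in 7.15% of all windows and in 4 of the 13 windows, those of Cry1, Per1 and Tef (in both windows of Tef). It lies 60 bases before the start site of Cry1 (chr10:85185079-85185144, minus strand), 166 bases before one of the 2 start sites of Per1 (chr11:69098753-69098818, plus strand) and 127 bases before one of the 2 start sites of Tef (chr15:81802516-81802581, plus strand). They are shown as the element shared by members from different arms of the loop. The CRE, through which cAMP signaling reaches Per1, was found in 1.79% of all windows and in 0 of the 13.
Cry1: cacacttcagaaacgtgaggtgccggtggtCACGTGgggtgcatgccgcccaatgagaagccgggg
Per1: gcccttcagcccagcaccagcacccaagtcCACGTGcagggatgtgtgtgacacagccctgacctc
Tef: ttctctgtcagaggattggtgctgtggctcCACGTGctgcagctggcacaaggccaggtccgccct

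Neither activator of the D-box passed the test in any comparison. Dbp, an output gene of the clock, had log2 levels of 5.26, 5.37 and 5.22 in WM1, WM2 and WM3, 5.22, 5.36 and 5.12 in KAA1, KAA2 and KAA3, and 5.22, 5.22 and 4.78 in control1, control2 and control3. Apart from control3, the lowest line, the values of the 3 groups were interleaved. The difference of mESC-IVFWM from mESC-control was 0.21 (SE 0.130, 95% interval -0.0817 to 0.511, limma adjusted p = 0.833), and that of mESC-IVFKAA from mESC-control was 0.16 (SE 0.130). Without control3 these differences were 0.068 and 0.016, and without WM3, KAA2 and control1 the first was 0.32.

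Tef, the other D-box activator, had log2 levels of 4.97, 4.84 and 4.73 in WM1, WM2 and WM3, 4.86, 4.84 and 4.58 in KAA1, KAA2 and KAA3, and 5.04, 4.84 and 4.64 in control1, control2 and control3. Lines of each group spread over most of the range of the gene. Relative to mESC-control, mESC-IVFWM differed by 0.0034 (SE 0.124, 95% interval -0.280 to 0.287, limma adjusted p = 0.999). It was 0.16 without WM3, KAA2 and control1.

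Several of these values recur exactly. Tef stood at 4.84 in 3 lines (WM2, KAA2 and control2), Dbp at 5.22 in 4 lines, Nr1d2 at 5.42 in 3, Clock at 4.48 in 3 and Per2 at 3.79 in 5, while Nfil3 stood at 5.92 in both control1 and control3. An exactly repeated value among the 9 lines occurred in 14588 (62.3%) of the tested clusters. Lines at a repeated value have no order among themselves.

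Among the inhibitors of CLOCK and BMAL1, Per1 responds to serum and cAMP as well as to the clock. It was measured at a log2 level of 6.25, 6.31 and 6.08 in WM1, WM2 and WM3, 6.14, 6.40 and 6.10 in KAA1, KAA2 and KAA3, and 6.19, 5.82 and 5.89 in control1, control2 and control3. The 6 IVF lines lay above control2 and control3, and control1 lay among them. Differences from mESC-control were 0.24 for mESC-IVFWM (SE 0.126, 95% interval -0.0451 to 0.528, limma adjusted p = 0.819) and 0.24 for mESC-IVFKAA (SE 0.126, limma adjusted p = 0.918), while mESC-IVFWM and mESC-IVFKAA differed by -0.0031 (SE 0.126). Without WM3, KAA2 and control1 the difference of mESC-IVFWM was 0.42 from mESC-control and 0.16 from mESC-IVFKAA. The difference of mESC-IVFKAA from mESC-control was 0.15 without KAA2. These comparisons with mESC-control share its 3 lines.

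KAA2, the line with the highest Per1 level, was also the highest in 8 immediate early genes (Fos, Fosb, Egr1, Egr2, Ier2, Junb, Dusp1 and Atf3), which cells turn on within minutes of a stimulus. Their mean log2 level was 8.00 in KAA2, against 6.56 to 7.16 in the other 8 lines. By group it spanned 6.72 to 7.16 in mESC-IVFWM lines, 6.75 to 8.00 in mESC-IVFKAA lines and 6.56 to 6.91 in mESC-control lines. KAA1 and KAA3, at 6.75 and 6.83, lay within the mESC-control range. Against mESC-control, 6 of 8 genes had a higher mean in mESC-IVFWM (51.5% of all clusters) and 8 of 8 in mESC-IVFKAA (52.3%). The count for mESC-IVFKAA includes KAA2 and was not taken without it. The part of this response in the levels of Per1 was not tested.

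Per2 was the lowest of the 10 genes, below the level of the median cluster. Its log2 level was 3.75, 3.79 and 4.01 in WM1, WM2 and WM3, 3.79, 3.84 and 3.79 in KAA1, KAA2 and KAA3, and 3.45, 3.79 and 3.79 in control1, control2 and control3. Beside the 5 lines at 3.79, WM3 was high and control1 low. Between mESC-IVFWM and mESC-control the difference was 0.18 (SE 0.113, 95% interval -0.0800 to 0.434, limma adjusted p = 0.840). It was 0.064 without control1, and -0.017 without WM3, KAA2 and control1.

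Cry1, which encodes a strong repressor of CLOCK and BMAL1, had log2 levels of 6.60, 6.13 and 6.61 in WM1, WM2 and WM3, 6.83, 6.41 and 6.52 in KAA1, KAA2 and KAA3, and 6.71, 6.61 and 6.63 in control1, control2 and control3. All mESC-IVFWM lines lay below all mESC-control lines, but the highest mESC-IVFWM line, WM3 at 6.6144, and the lowest mESC-control line, control2 at 6.6147, were nearly equal. On average mESC-IVFWM and mESC-control differed by -0.20 (SE 0.151, 95% interval -0.549 to 0.141, limma adjusted p = 0.857). Without WM2, the lowest line, it was -0.044. Among the 9 genes this was 1 whose lines did not overlap between mESC-IVFWM and mESC-control, where 8.13% of all tested clusters had no overlap in either direction. There were 0 of 9 between mESC-IVFKAA and mESC-control (8.08% of all clusters) and 0 of 9 between mESC-IVFWM and mESC-IVFKAA (8.66% of all clusters).

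Cry2, the other cryptochrome, varied more than the rest. It was measured at a log2 level of 4.85, 4.82 and 5.56 in WM1, WM2 and WM3, 4.86, 5.25 and 5.27 in KAA1, KAA2 and KAA3, and 5.35, 5.63 and 4.98 in control1, control2 and control3. High and low lines occurred in every group, and the SD within groups was 0.334, against a median of 0.156 over all clusters. The difference of mESC-IVFWM from mESC-control was -0.25 (SE 0.235, 95% interval -0.782 to 0.291, limma adjusted p = 0.897). It was -0.49 without WM3, -0.092 without control2 and -0.47 without WM3, KAA2 and control1.

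Of the REV-ERB genes, Nr1d1 was the highest of the 10 genes on the log2 scale of its own probes. It had 6.90, 7.06 and 6.86 in WM1, WM2 and WM3, 6.91, 6.90 and 6.77 in KAA1, KAA2 and KAA3, and 6.95, 6.52 and 6.67 in control1, control2 and control3. As for Per1, control2 and control3 were the lowest lines and control1 lay among the IVF lines. Differences from mESC-control were 0.23 for mESC-IVFWM (SE 0.118, 95% interval -0.0392 to 0.498, limma adjusted p = 0.819) and 0.15 for mESC-IVFKAA (SE 0.118). Without control2, the lowest line, they were 0.13 and 0.051, without control1 they were 0.35 and 0.27, and without WM3, KAA2 and control1 they were 0.39 and 0.25.

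Nr1d2, its paralog, was the steadiest gene. Its log2 level was 5.38, 5.45 and 5.42 in WM1, WM2 and WM3, 5.36, 5.56 and 5.43 in KAA1, KAA2 and KAA3, and 5.42, 5.42 and 5.39 in control1, control2 and control3. All 9 values lay within a range of 0.20, and the groups overlapped. Relative to mESC-control, mESC-IVFWM differed by 0.0058 (SE 0.073, 95% interval -0.161 to 0.172, limma adjusted p = 0.999).

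Clock, the partner of BMAL1 on the E-box, lay below the median cluster. It was measured at a log2 level of 4.41, 4.48 and 4.33 in WM1, WM2 and WM3, 4.46, 4.48 and 4.84 in KAA1, KAA2 and KAA3, and 4.35, 4.84 and 4.48 in control1, control2 and control3. KAA3 and control2 were the 2 high lines, and the others of the 3 groups overlapped. The difference was -0.15 between mESC-IVFWM and mESC-control (SE 0.146, 95% interval -0.479 to 0.184, limma adjusted p = 0.902) and -0.18 between mESC-IVFWM and mESC-IVFKAA (SE 0.146, limma adjusted p = 0.813). Without control2 the first of these was -0.0067, without control1 it was -0.25, and without KAA3 the second was -0.062.

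Counted over the 9 genes other than Nfil3, 0 passed an adjusted p of 0.05 in any of the 3 comparisons, as did 0% of the 23410 clusters. At an unadjusted p under 0.05 there were 0 of 9 genes between mESC-IVFWM and mESC-control (5.89% of all clusters), 0 of 9 between mESC-IVFKAA and mESC-control (4.81%) and 0 of 9 between mESC-IVFWM and mESC-IVFKAA (6.29%). By the rank product, which orders clusters by their ranks over the pairwise differences, 0 of 9 genes passed in any comparison (threshold 0.05 for the percentage of false positives), where 22 clusters (0.094%), 31 clusters (0.132%) and 74 clusters (0.316%) passed in the same order. The median difference of the 9 genes was 0.0058 between mESC-IVFWM and mESC-control, 0.037 between mESC-IVFKAA and mESC-control and -0.0031 between mESC-IVFWM and mESC-IVFKAA. Over all clusters the corresponding medians were 0.0046, 0.0067 and -0.0068. Of the 9 genes, 6, 6 and 4 had a difference above 0, against 51.5%, 52.3% and 47.8% of all clusters. The widest interval among these genes, that of Cry2 between mESC-IVFWM and mESC-control, reached -0.782, so differences as large as that of Nfil3 were not excluded for every gene.

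**Figure D2:**
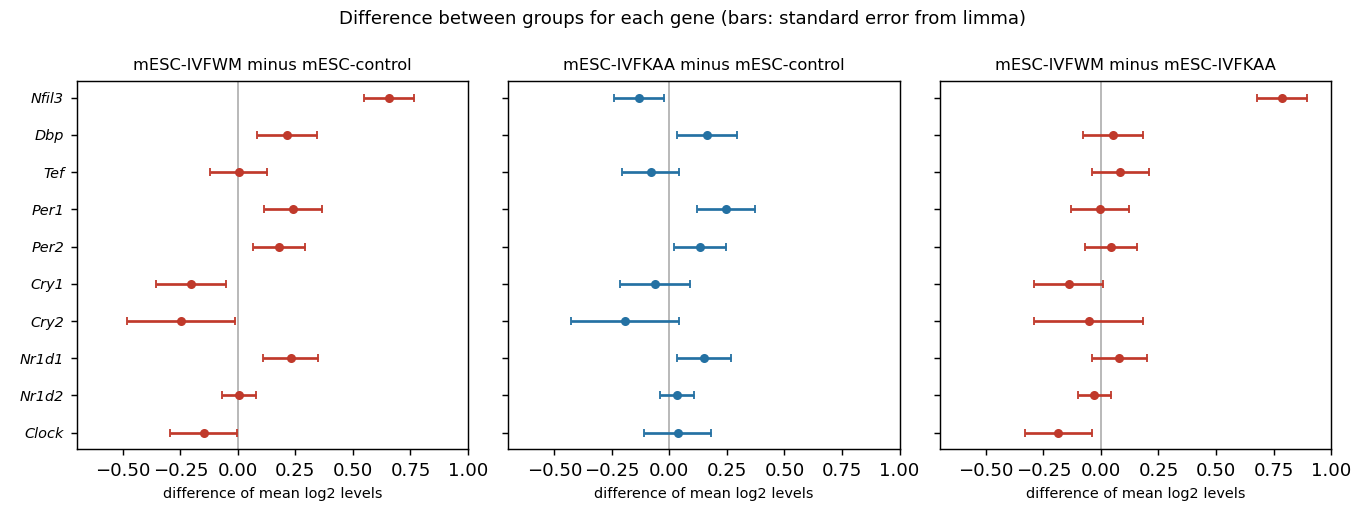
Difference of mean log2 levels for each gene in the 3 comparisons, with bars of 1 standard error from limma. Nfil3 lies at 0.66 and 0.79 in the comparisons of mESC-IVFWM with mESC-control and with mESC-IVFKAA, while the other 9 genes lie between -0.25 and 0.24 in all panels.

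Whether a gene follows Nfil3 from line to line can be read apart from the difference that chose Nfil3. The mESC-IVFWM lines lie apart from the others in Nfil3, so no correlation pooled over the 9 lines is given for the clock genes. The relation was taken in the 6 mESC-IVFKAA and mESC-control lines, where Nfil3 spanned 5.54 to 5.92, and over the deviations of all 9 lines from their group means. In addition limma was fitted with the level of Nfil3 as a covariate, over 23409 clusters.

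Over the 6 lines Clock had the r farthest from 0. Pearson's r was -0.81 (two-sided exact permutation p = 0.05) and Spearman's rho was -0.75 (exact permutation p = 0.111). The lines with the highest Clock level, KAA3 and control2 at 4.84, were the lowest mESC-IVFKAA line and the lowest mESC-control line in Nfil3. KAA3 is farthest from the median of Nfil3 and control1 and control3, equal in Nfil3, come next. In 4 lines, r was -0.58 without KAA3 and control1 and -0.68 without KAA3 and control3. Without control1 and KAA2, the lines with Y-linked signal, it was -0.94 in 4 lines. The permutation takes the 6 lines as exchangeable. With the means of same-numbered mESC-IVFKAA and mESC-control lines removed, r was -0.69 over 3 pairs, and it rests on pair 3: mESC-IVFKAA minus mESC-control in Nfil3 was -0.013, -0.0054 and -0.37 in pairs 1, 2 and 3, beside 0.11, -0.36 and 0.36 in Clock. Deviations from the group means over the 9 lines gave an r of -0.87 (exact permutation within groups, p = 0.00926). That p is the smallest this test can give, since control1 and control3 are equal in Nfil3. The test takes the lines of a group as exchangeable and does not pair them. In the 6 lines without control1, KAA2 and WM3 the r of the deviations was -0.98. With 2 lines left per group the deviations of a group are equal and opposite. Any r of deviations without these lines therefore rests on 1 difference per group. Within mESC-IVFWM the line with the highest Nfil3 level, WM3, had the lowest Clock level. The fit with the group beside Nfil3 gave a slope of -1.27 (SE 0.356, limma unadjusted p = 0.00776), which did not pass after adjustment over all clusters (adjusted p = 0.959).

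Cry1 had the largest positive r over the 6 lines, 0.72 (exact permutation p = 0.0889), with a rho of 0.75 (exact permutation p = 0.106), and r was 0.72 again in the 4 lines left without KAA3 and control1, 0.83 without KAA3 and control3, 0.76 without control1 and KAA2 and 0.41 with pair means removed. Deviations from the group means gave an r of 0.59 (exact permutation p = 0.0648), or 0.58 without control1, KAA2 and WM3, and the fit beside the group an adjusted p of 0.965 in limma. Between groups the order was the other way round, since Cry1 was lowest and Nfil3 highest in mESC-IVFWM.

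The remaining 7 genes had an r nearer to 0 over the 6 lines. Pearson's r was 0.48 for Tef, 0.30 for Nr1d1, -0.095 for Per1, -0.33 for Dbp, -0.46 for Per2, -0.49 for Nr1d2 and -0.52 for Cry2, and the lowest exact permutation p among them was 0.308 for r (Cry2) and 0.144 for rho (Nr1d2, rho of -0.69). These 9 relations were examined together.

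The order of the genes depended on the lines kept. Without KAA3 and control1, r was -0.87 for Cry2, -0.78 for Nr1d2 and -0.70 for Dbp, all farther from 0 than Clock. Without control1 and KAA2 it was -0.87 for Nr1d2 and -0.70 for Cry2, and over deviations without control1, KAA2 and WM3 it was -0.84 for Nr1d2, -0.89 for Cry2, 0.68 for Nr1d1 and 0.61 for Per1. For those deviations the limit given for Clock holds as well. Of the D-box activators, Dbp was negative in each of these checks (-0.70 without KAA3 and control1, -0.59 without KAA3 and control3, -0.92 with pair means removed). Tef turned sign, with -0.54 without KAA3 and control1 against 0.68 without KAA3 and control3 and 0.34 with pair means removed.

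Over all clusters, 0 of 9 genes passed an adjusted p of 0.05 in any of the fits to the level of Nfil3, as did 0% of the 23409 clusters. At an unadjusted p under 0.05 there was 1 of 9 genes, Clock, with the group beside Nfil3 (5.16% of all clusters) and with the 6 lines (5.11%). The fit over the 9 lines with no group term, which takes in the difference that chose Nfil3, also had 1 of 9 (6.88% of all clusters), and nothing is read from it. The lowest adjusted p of any cluster was 0.169, 0.826 and 0.903 in these fits.

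**Figure D3:**
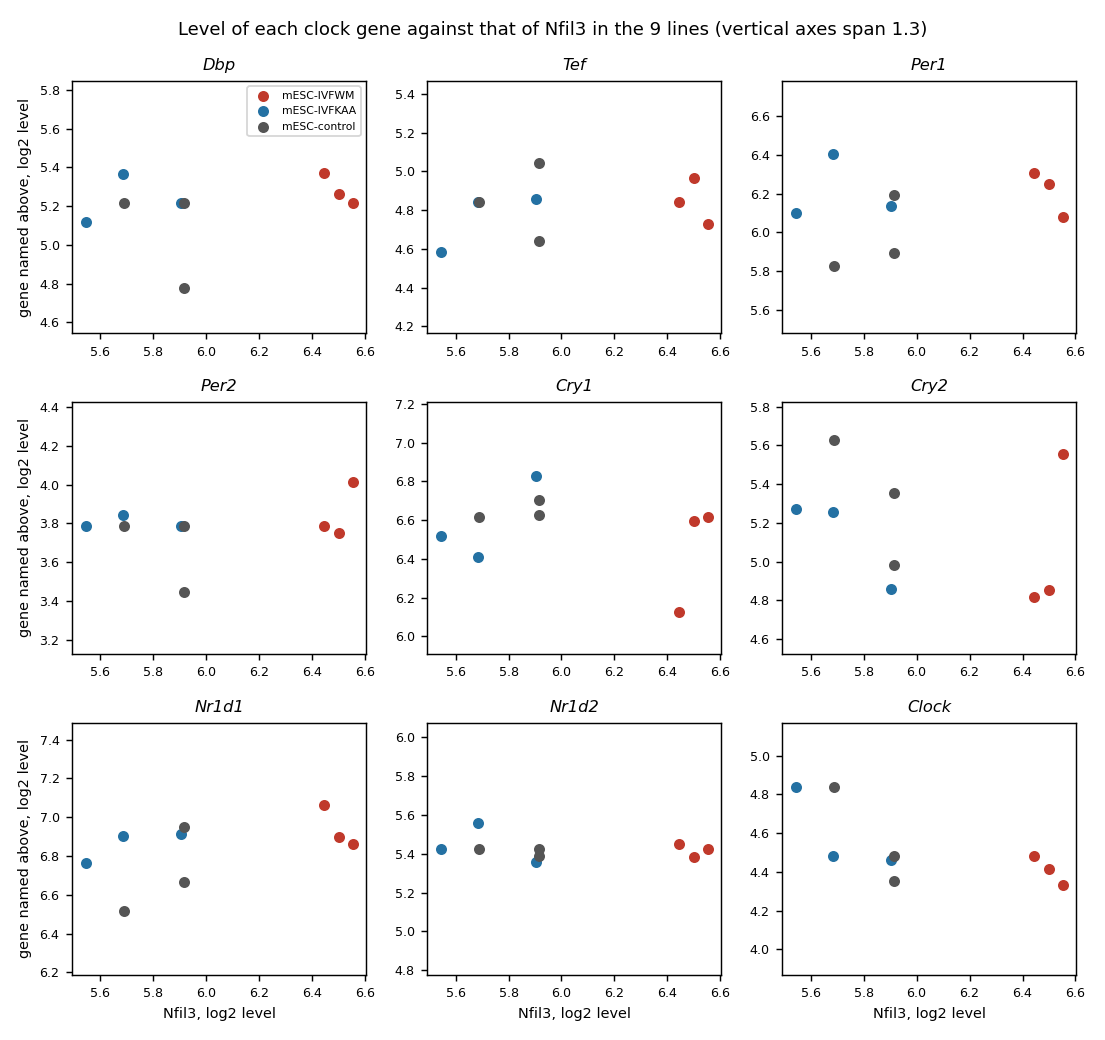
Log2 level of each clock gene against the log2 level of Nfil3, with 1 point per line (some points coincide) and vertical axes of equal span. The mESC-IVFWM lines lie to the right, at a Nfil3 level of 6.44 and above. Within each group Clock is lower where Nfil3 is higher, with r of -0.81 in the 6 mESC-IVFKAA and mESC-control lines.

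Among themselves, the 9 genes formed 36 pairs, whose Pearson's r over the 9 lines had a median of 0.029, with 20 pairs above 0. The values are a description, since lines of a group share their origin and pairs share genes. The highest was that of Per1 and Nr1d1 (r of 0.87, and 0.83 over deviations from the group means), followed by Dbp and Per1 (0.69, and 0.54 over deviations) and Dbp and Nr1d1 (0.56, and 0.34). The lowest was that of Nr1d1 and Clock, at -0.66 (-0.69 over deviations). Over deviations Dbp and Tef came after Per1 and Nr1d1, at 0.74, and Per2 and Nr1d1 were lowest, at -0.76.

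Of 21 further clock genes, 18 had a cluster of their own, and 0 of 18 passed an adjusted p of 0.05 in each comparison. Between mESC-IVFWM and mESC-control, 13 of 18 were higher, with a median difference of 0.039, and 1 of 18 had an unadjusted p under 0.05 (5.89% of all clusters). Between mESC-IVFKAA and mESC-control, 12 of 18 were higher, with a median of 0.040 and 0 of 18 at an unadjusted p under 0.05 (4.81%). Between mESC-IVFWM and mESC-IVFKAA, 13 of 18 were higher, with a median of 0.044 and 1 of 18 at an unadjusted p under 0.05 (6.29%). Over all clusters, 51.5%, 52.3% and 47.8% were higher in these comparisons, with medians of 0.0046, 0.0067 and -0.0068. The list as a whole was not tested.

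Arntl, which encodes BMAL1, was lower on average in mESC-IVFWM. Its log2 level was 5.38, 4.96 and 5.72 in WM1, WM2 and WM3, 6.09, 5.72 and 5.98 in KAA1, KAA2 and KAA3, and 6.17, 5.55 and 5.75 in control1, control2 and control3. WM1 and WM2 were the lowest of all lines, whereas WM3 stood at the same value as KAA2. The difference was -0.58 between mESC-IVFWM and mESC-IVFKAA (SE 0.216, limma unadjusted p = 0.0269, adjusted p = 0.771) and -0.47 between mESC-IVFWM and mESC-control (SE 0.216, unadjusted p = 0.0601, adjusted p = 0.819). Without WM2 these differences were -0.38 and -0.27. Without WM3, KAA2 and control1 the difference from mESC-IVFKAA was -0.86.

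Bhlhe40, a repressor at the E-box that also responds to serum and hypoxia, had log2 levels of 8.31, 7.62 and 7.92 in WM1, WM2 and WM3, 7.57, 8.05 and 7.39 in KAA1, KAA2 and KAA3, and 7.79, 7.02 and 7.51 in control1, control2 and control3. The highest mESC-IVFKAA line was KAA2, the line highest in immediate early genes. Between mESC-IVFWM and mESC-control the difference was 0.51 (SE 0.253, limma adjusted p = 0.819), with overlap of the lines. It was 0.30 without control2.

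Csnk1e, the casein kinase that marks PER proteins for degradation, had log2 levels of 7.60, 7.26 and 7.37 in WM1, WM2 and WM3, 7.25, 7.26 and 7.25 in KAA1, KAA2 and KAA3, and 7.30, 6.90 and 7.17 in control1, control2 and control3. WM2 lay below control1. On average mESC-IVFWM and mESC-control differed by 0.29 (SE 0.121, limma unadjusted p = 0.0419, adjusted p = 0.819). It was 0.18 without control2. For Per3, the gene with the D-boxes shown above, the same difference was 0.19 (SE 0.092, limma adjusted p = 0.819). It was 0.11 without WM2.

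Ciart, which encodes a repressor of CLOCK and BMAL1, has 2 clusters that disagree in part. In one of them the difference of mESC-IVFKAA from mESC-control was 0.59 (SE 0.309, limma adjusted p = 0.918), and in the other it was -0.067 (SE 0.367). The first was 0.25 without control2, 0.898 without control1 and 0.95 without WM3, KAA2 and control1. In the second cluster control1 stood at 6.06, against 4.36 and 4.90 in control2 and control3. Its mESC-IVFKAA lines stood at 5.23, 4.95 and 4.95, so the negative difference rests on control1. In both, every mESC-IVFWM line lay below every mESC-IVFKAA line, with differences of -0.55 and -0.41 (limma adjusted p = 0.792 and 0.836). The first of these was -0.35 without WM1. Btrc, a subunit of the ligase that degrades PER proteins, differed by 0.23 between mESC-IVFWM and mESC-IVFKAA (SE 0.111, limma adjusted p = 0.771) and Rorb, an activator at the ROR element, by -0.18 (SE 0.111, limma adjusted p = 0.803). They were 0.14 without WM2 and -0.075 without WM1. Rorb averaged a log2 level of 2.26, the lowest of the further clock genes and below the median cluster. The other genes named by the rule between mESC-IVFKAA and mESC-control were Per3 (0.13), Arntl2 (0.20), a paralog of Arntl, and Bhlhe41 (-0.27), a paralog of Bhlhe40. On average these genes lay below the median cluster as well. Arntl2 was at 0.33 and Bhlhe41 at -0.089 without KAA2, WM3 and control1, while leaving out 1 line gave 0.022 (control3) to 0.40 (control1) for Arntl2 and -0.39 (control2) to -0.058 (control1) for Bhlhe41.

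**Figure D4:**
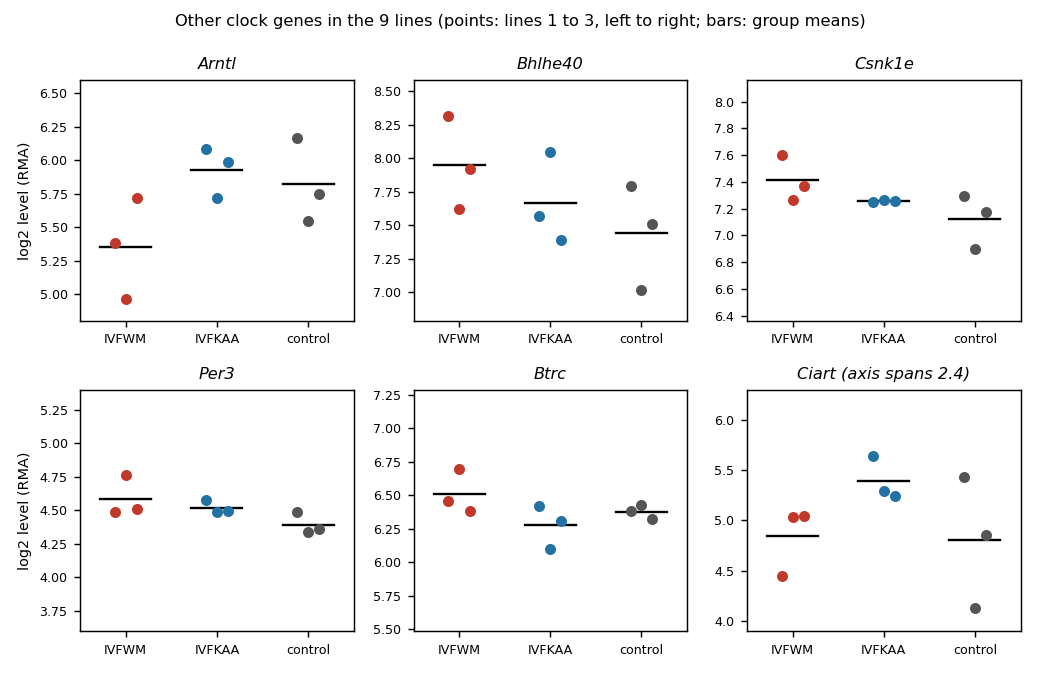
Log2 level (RMA) of 6 further clock genes in each line, by group, with group means as horizontal bars; the axis of Ciart, shown for one of its clusters, is wider than the others. For Arntl, WM1 and WM2 lie at 5.38 and 4.96, below all other lines, while WM3 is level with KAA2 at 5.72.

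One mESC-control line was high in many of these genes. The mean log2 level of the 18 further clock genes was highest in control1, at 5.59, against 5.34 and 5.39 in control2 and control3. The same line was the highest of its group in Per1, Nr1d1, Arntl, Bhlhe40, Csnk1e, Per3 and both clusters of Ciart. It was the lowest of its group in Per2 and Clock, and in Wee1, Klf10 and Fbxl21 of the further clock genes. Over the 10 genes its mean was 5.46, against 5.44 and 5.32 in control2 and control3. In the markers of primitive endoderm control1 was again the highest mESC-control line, at a mean of 5.77, and the part of such cells in its clock genes was not tested.

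Genes that followed Nfil3 over the 9 lines were taken from 10930 clusters with a single symbol at or above the median level. The 5 with the highest Pearson's r were Ralgapb (0.974), a subunit of a GTPase-activating complex for Ral, Trmt1l (0.939), a paralog of a tRNA methyltransferase, Slc26a10 (0.939), of a family of anion transporters, Exosc8 (0.930), a subunit of the RNA exosome, and Ttc28 (0.930). Since they were picked for this likeness, and mESC-IVFWM lines lie apart in all of them, the values are a description. Ralgapb had log2 levels of 6.78, 6.66 and 6.71 in WM1, WM2 and WM3, 6.42, 6.19 and 6.06 in KAA1, KAA2 and KAA3, and 6.42, 6.28 and 6.35 in control1, control2 and control3. Within the 6 mESC-IVFKAA and mESC-control lines, r was 0.950 for Ralgapb and 0.984 for Ttc28, but 0.426 for Exosc8.

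The 5 genes with the lowest r were Zfp329 (-0.957), a zinc finger gene, Bves (-0.953), a membrane protein of muscle and epithelia, Txnip (-0.925), an inhibitor of thioredoxin that responds to glucose, Nob1 (-0.925), which processes ribosomal RNA, and Snord16a (-0.918), a small nucleolar RNA. Txnip had log2 levels of 8.38, 8.46 and 8.29 in WM1, WM2 and WM3, 9.07, 9.21 and 9.14 in KAA1, KAA2 and KAA3, and 8.99, 8.85 and 9.08 in control1, control2 and control3. Its mESC-IVFWM lines lay below the other 6 lines, whose values overlapped. Within those 6 lines r was -0.192 for Txnip and -0.260 for Nob1, against -0.877 for Zfp329 and -0.870 for Bves.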

How the data were processed

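RNA of 9 mESC lines was hybridised to Affymetrix Mouse Gene ST arrays. The authors made the deposited log2 values by RMA (background correction, quantile normalization, median polish), and the submitters' processing notes name Affymetrix Expression Console and R 3.1.0. Of 35556 clusters, 12146 without an assigned gene were left out. Groups and line numbers came from the sample titles. Members and gene lists were chosen with earlier results of these data known.

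Group means were fitted over all 9 lines with limma 3.58.1 in R 4.3.3 (lmFit, eBayes; Benjamini-Hochberg over 23410 clusters, threshold 0.05). The rank product, the test of the study, was written in numpy 2.4.6 with 100 permutations within arrays. Exact permutations enumerated 720 orders of the 6 lines, or 216 within groups. Both fits were tested on simulated data. Replicates are separate lines, and p-values measure the spread between them.

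Named genes were the 10 members, up to 4 of the further clock genes with the smallest p in each comparison, and 5 clusters at each end of r with Nfil3. Alternatives were other normalizations, filters, tests and spreads, the line number as a block, and leaving out lines. Deviations of same-numbered lines correlated at 0.457, 0.205 and 0.164 between mESC-IVFKAA and mESC-control, so pair means were removed as a check. The main fits and the exact permutations did not pair the lines. Across all groups, the most similar line of another group had the same number in 10 of 18 cases. In the other comparisons at least 1 pair was under 0.1. The array's probe coordinates were not used here.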

Additional observations from a re-analysis of the deposited data

How the results depend on the processing

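Each comparison, and the relation to Nfil3, was recounted in its alternative settings. The count of clock genes past the threshold, or related to Nfil3, was 0 in 81 of 81 such recounts, the replicate block included. With that block the number of clusters past the threshold was 0 in each comparison, and it changed no call. Over the settings tried, Nfil3 differed by 0.582 to 0.695 between mESC-IVFWM and mESC-control and by 0.704 to 0.884 between mESC-IVFWM and mESC-IVFKAA. Every mESC-IVFWM line lay above every other line by the choice of the gene. Leaving out lines could therefore not reverse these differences, and nothing is read from their direction. Between mESC-IVFKAA and mESC-control, the contrast that did not choose the gene, Nfil3 ranged from -0.227 to -0.0470. Of 300 recomputed differences of the 10 genes, 33 changed sign, in 14 of 30 results whose difference was 0.18 or less in size. Those recomputed for the further clock genes named changed none, with Ciart taken from the first of its clusters only. Relations to Nfil3 in 4 lines or with pair means removed, and the feeder list without Acta2, Fn1 and Vim (a difference of mESC-IVFWM from mESC-control of 0.069 against 0.25 with all 12), were chosen after seeing the data.

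Numbers of clusters past the threshold were 22 (mESC-IVFWM against mESC-control), 31 (mESC-IVFKAA against mESC-control) and 74 (mESC-IVFWM against mESC-IVFKAA) by the rank product, against 0 by limma. Leaving out 1 line gave 0 to 1 clusters in the comparisons of mESC-IVFWM, where the 1 cluster, without WM3, was Bgn, chosen after its values were seen (limma adjusted p = 0.0229 against mESC-control and 0.0281 against mESC-IVFKAA). For the relation to Nfil3 it gave 0 to 1 (Phf11a without KAA2, Mob3b without WM2, Serpinf1 without WM3), and 1 cluster with no assigned gene was found when all clusters of the array were tested. The cause was not tested.

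Between mESC-IVFWM and mESC-control, median centring gave -0.0104 for Nr1d2 and -0.0128 for Tef, and quantile normalization gave -0.00074 for Nr1d2 and -0.018 for Tef. Without control1, KAA2 and WM3 together, the lines highest in Eif2s3y, Per2 was at -0.017 in mESC-IVFWM against mESC-control and -0.017 against mESC-IVFKAA, Per1 at 0.16 and Nr1d2 at 0.023 against mESC-IVFKAA, and mESC-IVFKAA against mESC-control gave -0.0086 for Clock, 0.051 for Cry1 and -0.015 for Nr1d2.

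Ranges over leaving out 1 line that crossed 0 follow, and other values that 1 line moved stand beside their genes. Between mESC-IVFKAA and mESC-control they were -0.086 to 0.18 for Clock, -0.18 to 0.023 for Cry1, -0.021 to 0.079 for Nr1d2 and -0.18 to 0.020 for Tef. Between mESC-IVFWM and mESC-IVFKAA they were -0.23 to 0.019 for Cry1, -0.29 to 0.076 for Cry2, -0.0059 to 0.12 for Dbp, -0.073 to 0.026 for Nr1d2, -0.060 to 0.092 for Per1, -0.036 to 0.095 for Per2 and -0.0046 to 0.14 for Tef. Between mESC-IVFWM and mESC-control they were -0.0093 to 0.024 for Nr1d2 and -0.096 to 0.10 for Tef.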

Other observations

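NFIL3, DBP and TEF are bZIP factors, and 9 of 10 listed genes of the neighbouring C/EBP and BATF families and related factors had a cluster of their own. In limma 0 of 9 passed an adjusted p of 0.05 in each comparison, and 0 of 9 had an unadjusted p under 0.05. Over all clusters the unadjusted share was 5.89% (mESC-IVFWM against mESC-control), 4.81% (mESC-IVFKAA against mESC-control) and 6.29% (mESC-IVFWM against mESC-IVFKAA). Of the 9 genes, 6 were higher in mESC-IVFWM than in mESC-control (51.5% of all clusters), 4 higher in mESC-IVFKAA than in mESC-control (52.3%) and 2 higher in mESC-IVFWM than in mESC-IVFKAA (47.8%).

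Markers of trophectoderm had a mean log2 level of 6.76 to 7.05 in mESC-IVFWM lines, 6.75 to 7.26 in mESC-IVFKAA lines and 6.72 to 7.02 in mESC-control lines. Of 7 such markers, 4 were higher in mESC-IVFWM than in mESC-control (51.5% of all clusters), 6 higher in mESC-IVFKAA than in mESC-control (52.3%) and 1 higher in mESC-IVFWM than in mESC-IVFKAA (47.8%). The lowest of them, Elf5, averaged 2.96.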
